A study of Homo sapiens with 8 samples.

Results

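The comparison asks which genes answered GSK343 differently in HepG2 and in PLC/PRF/5 (PLC5) cells, that is, for which genes the difference between treated and control cells was not the same in the 2 lines. Both are human liver cancer lines, and GSK343 is a small molecule that inhibits EZH2. The 4 groups were HepG2 control, HepG2 with GSK343 at 10 µM, PLC5 control and PLC5 with GSK343 at 10 µM, each measured on 2 of the 8 arrays; cells given GSK343 are called treated or exposed. Sample titles and study design state an exposure of 16 h, whereas the treatment protocol gives 6 h of incubation. All cells were kept in DMEM with heat-inactivated serum, and the labels do not name what the control cells received and do not tell whether arrays of 1 group are separate cultures; p-values therefore measure the spread between these arrays, which may be technical. Each line stands for 1 tumour, and a contrast between them compares these 2 lines.

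Probes were kept when their normalized intensity was above 64 in all 4 group means, so that spots near the floor do not lead. Of 31741 probes 22785 passed, 18423 of them with 1 gene symbol, and these stood for 14149 of the 18336 genes on the array. The quantity followed is the PLC5 response minus the HepG2 response, where a response is treated minus control in log2 normalized intensity, so a positive value means that PLC5 went up more, or down less, than HepG2. A gene was called when limma's adjusted p for that difference was under 0.05, with Benjamini-Hochberg adjustment over all probes. Of the 14149 genes 126 were called, 74 with PLC5 above HepG2 (0.523% of the genes) and 52 with PLC5 below (0.368%).

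EZH2 is the catalytic subunit of Polycomb repressive complex 2 (PRC2), which methylates lysine on histone H3 and keeps developmental regulators, HOX genes among them, silent. Cells also run fast programmes that answer growth factors, low oxygen, low sugar or a shortage of amino acids: MAP kinase signalling induces immediate early transcription factors and its own inhibitors, hypoxia-inducible factor switches on glucose uptake and glycolysis, and ATF4 switches on amino acid synthesis and import. A liver cell line carries these programmes beside hepatocyte genes such as albumin.

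A pair of short promoter motifs is printed here because genes taken up below carry them. The first is the CArG box (CC, then 6 bases that are A or T, then GG), to which serum response factor binds at growth-factor-induced genes. Of the 74 genes with a higher PLC5 response 55 had a promoter in the RefSeq table (250 bases before to 50 after the start, GRCh38.p14), and 4 of these held a CArG box, EGR1, FHL2, FILIP1L and PLAC8 (7.27%), against 1 of 45 promoters of genes with a lower PLC5 response (G2E3, 2.22%) and 132 of 11482 promoters of all genes over the minimum (1.15%). The stretches around the boxes, with the boxes in capitals, lie at chr5:138465354-138465425 on the plus strand for EGR1 (from 125 to 54 bases before the start), and on the minus strand at chr2:105438580-105438639 for FHL2, chr3:99876199-99876258 for FILIP1L and chr4:83114855-83114914 for PLAC8.
EGR1: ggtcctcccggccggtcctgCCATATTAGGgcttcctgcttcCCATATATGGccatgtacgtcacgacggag
FHL2: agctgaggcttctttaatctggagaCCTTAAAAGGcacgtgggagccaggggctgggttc
FILIP1L: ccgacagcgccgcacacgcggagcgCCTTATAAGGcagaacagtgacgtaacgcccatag
PLAC8: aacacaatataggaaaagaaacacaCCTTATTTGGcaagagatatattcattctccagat
The second is ACGTG, the core of the element bound by hypoxia-inducible factor, which was searched after the values were seen. It stood in 27.3% of the 55 promoters, 22.2% of the 45 and 25.1% of the 11482, and is shown for CA9 (chr9:35673840-35673927, plus strand) and ALDOC (chr17:28576896-28576948, minus strand), where it reads CACGT on the strand printed. Capitals mark it, and in CA9 also an AP-1 element (TGANTCA) further upstream.
CA9: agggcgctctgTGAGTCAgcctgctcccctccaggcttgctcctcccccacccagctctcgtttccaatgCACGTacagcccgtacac
ALDOC: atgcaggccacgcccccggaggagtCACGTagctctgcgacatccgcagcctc
Both strands were searched for every motif. The other 3 searched were AP-1 (9.09%, 2.22% and 4.96% of the same 3 sets), the cyclic AMP response element TGACGTCA (3.64%, 0% and 2.89%) and the C/EBP-ATF element TGATGNAA (3.64%, 6.67% and 2.0%). A match is a description of the letters in this window.

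GSK343 moved 126 genes differently in the 2 lines, with differences between 0.66 and 2.30 in size on the log2 scale. Over all probes the shares were 0.328% above and 0.369% below, 221 probes in all. The genes above were led by IGFBP1, AXL, PDE5A, SLC2A3, NPTX2 and EGR1, and those below by ITIH1, TTYH2, DBP, SLC66A3 and PRSS8. These leaders were not equally firm. With quantile normalization within each line, limma's adjusted p was 0.0608 for PDE5A, 0.0561 for NPTX2, 0.0507 for TTYH2 and 0.0532 for SLC66A3. For the others it was at most 0.0108 (DBP). A further PDE5A probe had the opposite sign (-0.32). In RNA from whole cultures, fewer cells that carry a transcript and less of it per cell cannot be told apart.

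Most of these genes moved in HepG2. Treated HepG2 differed from its control at 838 genes upward (5.92%) and 570 downward (4.03%), and treated PLC5 at 142 upward (1.0%) and 40 downward (0.283%). These splits depend on the scaling: with arrays centred on their median they were 522 upward and 692 downward in HepG2 and 95 and 210 in PLC5, the other way round in both lines, and without normalization 3368 and 51 in HepG2 and 90 and 7 in PLC5. Among the 74 genes with a higher PLC5 response, 46 had fallen in HepG2 without a call in PLC5, 17 had risen in PLC5 without a call in HepG2, 4 had fallen in HepG2 and risen in PLC5, 2 had risen in both and 5 had no call in either line. Among the 52 with a lower PLC5 response, 44 had risen in HepG2 without a call in PLC5, 4 had fallen in PLC5 without a call in HepG2 (ADH6, CDCA7, HOXA4 and HOXA5), HOXA3 had moved in opposite directions, UBD had fallen in both and DAPK1 and GOLGA2P5 had no call in either line. The response was larger in size in HepG2 for 87 of the 126, with a median size of 0.86 against 0.41 in PLC5.

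In all 126 called genes the 4 treated-minus-control differences of PLC5 lay on one side of the 4 of HepG2. Over all 14149 genes this held for 18.2% above and 18.8% below. Most calls sit close to the threshold: 74 of the 126 had an adjusted p above 0.04, the count fell to between 13 (without the second treated HepG2 array) and 45 (without the first HepG2 control) when 1 array was left out, and 82 genes kept their call in none of the 8 such fits. The genes IGFBP1, AXL, SLC2A3, EGR1, GDF15, PLAC8, HOXA3 and ITIH1 kept it in all 8. Scaling matters too. Centring each array on its median left 52 of the 126 calls, with 32 above and 32 below in all, and no normalization left 53. Without normalization the median of all genes moved to -0.35 and the split became 15 above and 189 below. The sign of the difference was unchanged there in all 126. The smallest difference among the called genes was 0.66 in size, so a shift of -0.35 could hardly turn a sign.

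**Figure D1:**
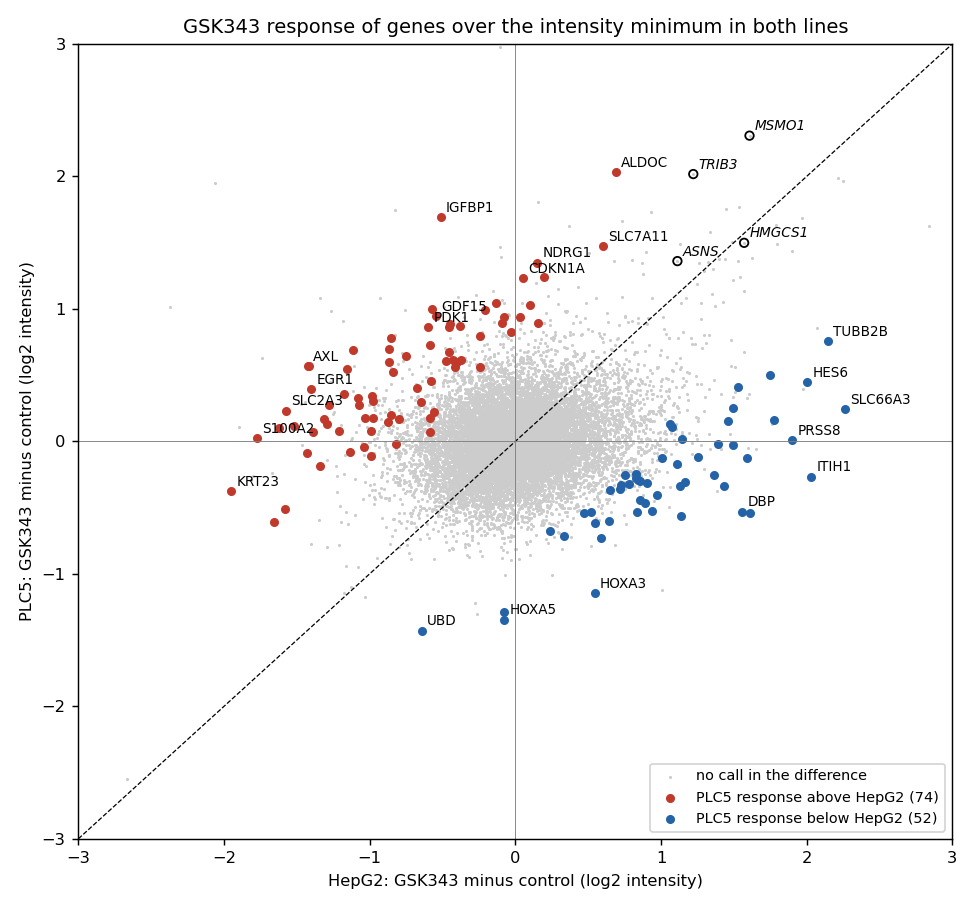
Response to GSK343 in HepG2 (x axis) and PLC5 (y axis), both as treated minus control in log2 normalized intensity, for the genes over the minimum (grey points; 11 lie outside the range shown). Red points are the 74 genes with a higher and blue points the 52 with a lower PLC5 response, open circles are 4 genes with no call in the difference, and the dashed line marks equal responses; most red points lie left of 0 and most blue points right of 0 on the x axis, with small values on the y axis.

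**Figure D2:**
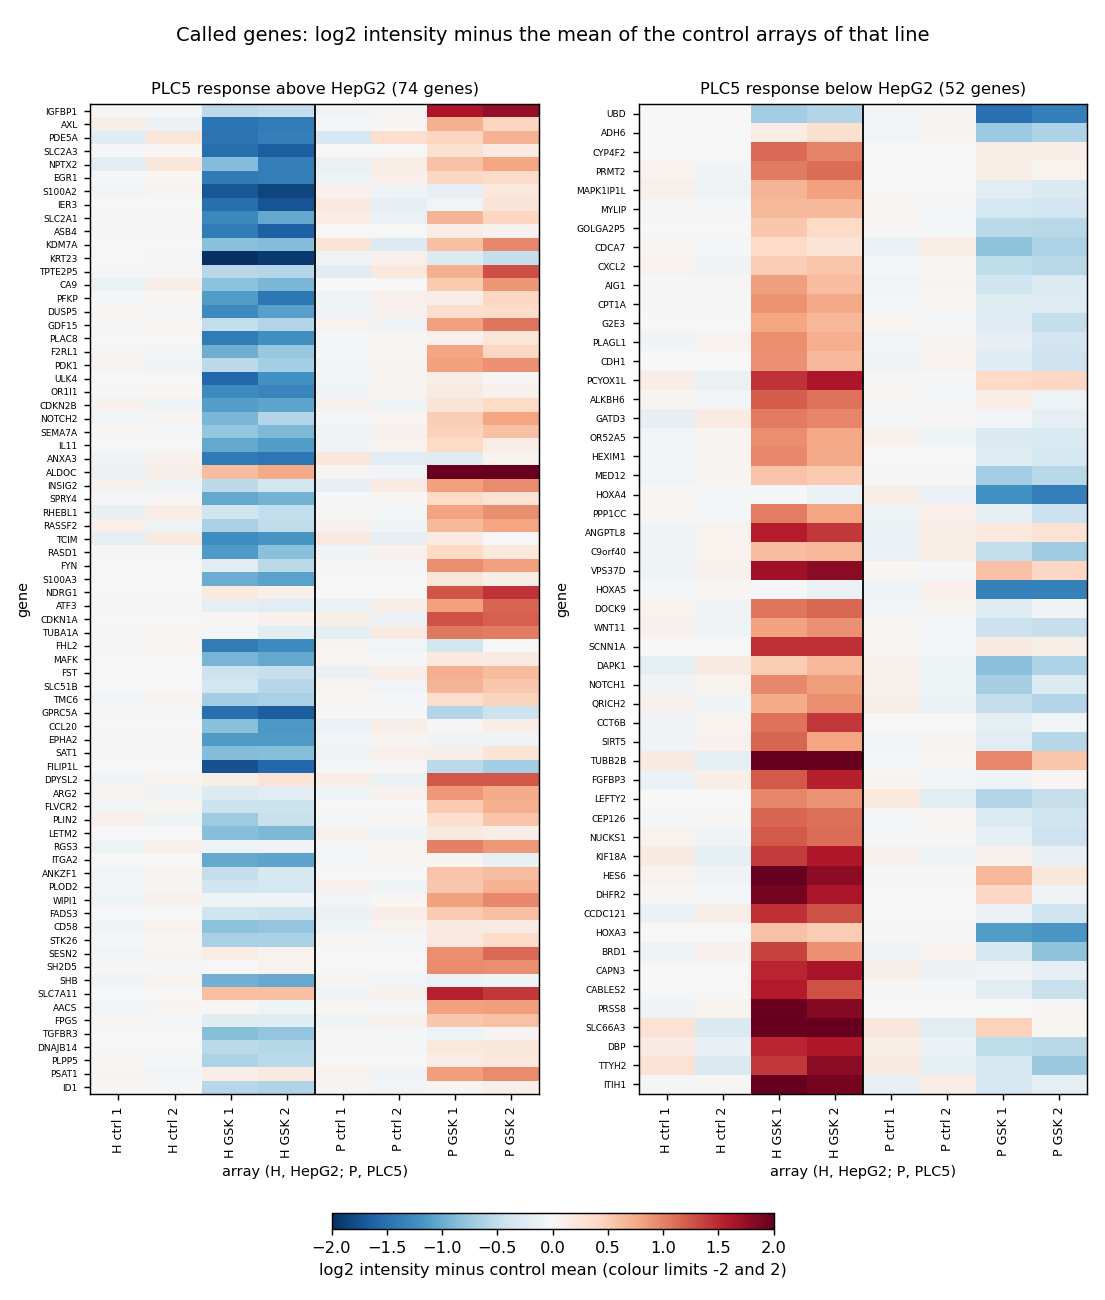
The 126 called genes, 1 row each, as log2 normalized intensity in each of the 8 arrays minus the mean of the 2 control arrays of the same line (blue lower, red higher, colours end at -2 and 2). On the left the treated HepG2 columns are mostly blue, on the right mostly red, and the treated PLC5 columns are paler apart from genes such as IGFBP1, ALDOC and HOXA3.

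Only 5 genes were called in both lines in opposite directions. All 5 were called in the difference, which follows largely from adding up 2 opposite responses of 1 fit. IGFBP1, GDF15, PDK1 and FST fell in HepG2 and rose in PLC5, and HOXA3 rose in HepG2 and fell in PLC5. IGFBP1 encodes a secreted protein that binds insulin-like growth factors and is made by liver. Its normalized intensity was 32790 and 31420 in control HepG2, 22270 and 22710 in exposed HepG2, 44510 and 48360 in control PLC5 and 143900 and 156300 in exposed PLC5. The treated HepG2 arrays were the lowest and the treated PLC5 arrays the highest, and no pair of groups overlapped. The response was -0.51 ± 0.09 (SE, n = 2 arrays per group) in HepG2 and 1.69 ± 0.09 in PLC5, 0.701 and 3.23 times the control, and the difference was 2.21 ± 0.13 (95% interval 1.91 to 2.50, limma adjusted p = 0.000398).

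GDF15, a stress-induced cytokine of the TGF-beta family, measured 34940 and 37120 in control HepG2, 25470 and 23900 in exposed HepG2, 79150 and 72530 in control PLC5 and 133700 and 159000 in exposed PLC5. Its treated arrays lay below their controls in HepG2 and above them in PLC5, with no overlap, and the difference was 1.49 ± 0.15 (limma adjusted p = 0.00833). PDK1, a kinase that inhibits pyruvate dehydrogenase, had intensities of 8880 and 8059 in control HepG2, 5910 and 5272 in exposed HepG2, 5800 and 6323 in control PLC5 and 10660 and 11360 in exposed PLC5. Control PLC5 and treated HepG2 overlapped in level, while within each line treated and control were apart, and the difference was 1.46 ± 0.16 (limma adjusted p = 0.0118; at most 0.0614 with 1 array left out).

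FST encodes follistatin, a secreted binder of activin. It read 22210 and 22510 in control HepG2, 16520 and 16160 in exposed HepG2, 39050 and 47390 in control PLC5 and 71290 and 66430 in exposed PLC5, so that each line's groups were apart. The difference was 1.13 ± 0.16 (limma adjusted p = 0.0299), and it kept its call in 1 of the 8 fits that left out 1 array (adjusted p = 0.104 without the first treated HepG2 array).

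**Figure D3:**
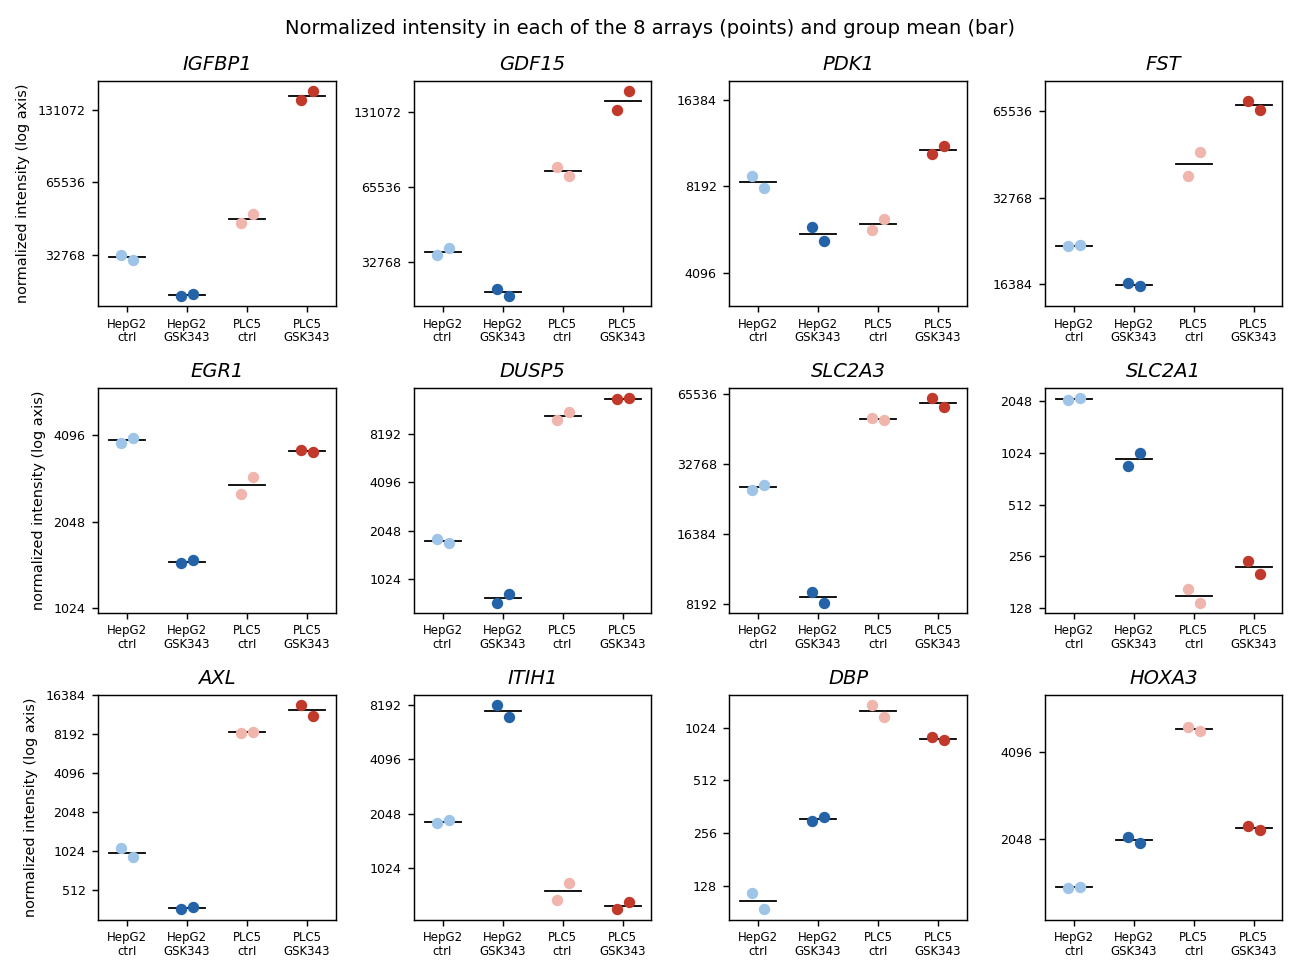
Normalized intensity of 12 genes in each of the 8 arrays (points) with the mean of each group (bar). Each panel has its own log axis. IGFBP1, GDF15, PDK1 and FST fall in HepG2 and rise in PLC5, EGR1, DUSP5, SLC2A3, SLC2A1 and AXL fall in HepG2 with smaller shifts in PLC5, and ITIH1 and DBP rise in HepG2.

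A number of genes that growth-factor signalling induces fell in HepG2, and a fall was called for none of them in PLC5. Of 17 MAP kinase feedback genes over the minimum, 9 fell in HepG2, none rose there, and in PLC5 1 rose and none fell. Of all genes 4.03% fell and 5.92% rose in HepG2, and 0.283% fell and 1.0% rose in PLC5. In the difference 4 were called, all with PLC5 above (DUSP5, EPHA2, IL11 and SPRY4), and the list's median difference was 0.51, against -0.004 over all genes. Of all genes 0.523% were called above and 0.368% below. With the replicate number as a block, limma's adjusted p was 0.0329 for DUSP5, 0.0746 for EPHA2, 0.084 for IL11 and 0.0595 for SPRY4. Of 29 immediate early genes over the minimum 3 were called, all above (ATF3, EGR1 and IER3), with a median difference of 0.39. For these genes the block gave a limma adjusted p of 0.084 (ATF3), 0.0213 (EGR1) and 0.0546 (IER3). In HepG2 6 of the 29 fell and 1 rose, and in PLC5 1 rose and none fell. Without normalization the medians of these lists were 0.19 and 0.04, where all genes stood at -0.35. The marker lists of leukocytes (4 genes over the minimum) and fibroblasts (6 genes), with no call, had medians of 0.45 and 0.54, of the size seen here and for glycolysis and hypoxia below, and their part in the result was not tested.

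EGR1, an immediate early transcription factor and the gene with 2 CArG boxes above, had intensities of 3841 and 4018 in control HepG2, 1469 and 1503 in exposed HepG2, 2557 and 2940 in control PLC5 and 3648 and 3567 in exposed PLC5. Treated HepG2 lay far below every other group, and treated PLC5 lay above its control without overlap. EGR1 fell to 0.378 times control in HepG2 (log2 -1.40 ± 0.12, adjusted p = 0.000718), the PLC5 response was 0.40 (adjusted p = 0.166), and the difference was 1.80 ± 0.16 (95% interval 1.43 to 2.17, limma adjusted p = 0.00513). IER3, an early-response survival gene, read 36060 and 36620 in control HepG2, 12740 and 10980 in exposed HepG2, 44590 and 34360 in control PLC5 and 37670 and 46930 in exposed PLC5. Its PLC5 groups overlapped, its HepG2 groups did not, and the difference was 1.72 ± 0.22 (limma adjusted p = 0.0227).

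DUSP5 encodes a nuclear phosphatase that switches ERK off. It measured 1808 and 1710 in control HepG2, 731 and 831 in exposed HepG2, 9999 and 11200 in control PLC5 and 13510 and 13680 in exposed PLC5, higher in PLC5 than in HepG2 on every array. The difference was 1.54 ± 0.17 (limma adjusted p = 0.011), with a HepG2 response of -1.17 and a PLC5 response of 0.36. SPRY4, an inhibitor of receptor tyrosine kinase signalling, responded by -0.99 in HepG2 (adjusted p = 0.00335) and 0.34 in PLC5 (adjusted p = 0.224), a difference of 1.33 ± 0.16 (limma adjusted p = 0.0205). A related phosphatase, DUSP6, was not called (0.95 ± 0.18, limma adjusted p = 0.061) and is named after its values were seen.

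The receptor tyrosine kinases AXL and EPHA2 were called with a higher PLC5 response, AXL from outside the 2 lists above. AXL encodes a receptor tyrosine kinase that binds GAS6, and it read 1085 and 919 in control HepG2, 364 and 380 in exposed HepG2, 8329 and 8551 in control PLC5 and 13770 and 11380 in exposed PLC5. PLC5 controls were several times above HepG2 controls, treated HepG2 was the lowest group, and no groups overlapped. AXL fell to 0.372 times control in HepG2 (adjusted p = 0.00143), the PLC5 response was 0.57 (adjusted p = 0.109), and the difference was 1.99 ± 0.19 (95% interval 1.55 to 2.44, limma adjusted p = 0.00664). EPHA2, an ephrin receptor, fell by 1.13 in HepG2 on the log2 scale (adjusted p = 0.00139) with a PLC5 response of -0.08 (adjusted p = 0.793). These were the 2 called among 18 receptor tyrosine kinases over the minimum, whose median difference was 0.25 (-0.08 without normalization). Of all genes 0.523% were called above.

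The other 3 genes with a CArG box and a higher PLC5 response fell in HepG2 as well, whereas G2E3, with a box and a lower PLC5 response, rose 1.65-fold there (adjusted p = 0.0172). PLAC8, a small cysteine-rich protein, measured 13470 and 13550 in control HepG2, 5132 and 5756 in exposed HepG2, 20690 and 21490 in control PLC5 and 22420 and 24990 in exposed PLC5. Treated HepG2 lay far below its control and the PLC5 groups were close without overlap, and the difference was 1.48 ± 0.15 (limma adjusted p = 0.00833). Further PLAC8 probes gave 1.47, 0.98 and, on a dim probe, 0.08 (limma adjusted p = 0.00515, 0.0725 and 0.904). FHL2, a LIM-domain cofactor of serum response factor, had a HepG2 response of -1.34 and a PLC5 response of -0.19. FILIP1L responded by -1.66 and -0.61, and both differences were just past the threshold (FHL2 1.16, adjusted p = 0.049; FILIP1L 1.04, adjusted p = 0.0492, both limma). PLAC8 and FHL2 are named for the motif, after their values were seen. Of 19 YAP and SRF targets over the minimum 8 fell and 1 rose in HepG2, and 3 fell and none rose in PLC5. Falls were thus called in both lines, against 4.03% of all genes in HepG2 and 0.283% in PLC5. In the difference 2 were called (AXL and FILIP1L), against 0.523% of all genes above. The list's median difference was 0.10 (-0.23 without normalization).

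Of 15 S100 and annexin genes over the minimum 3 were called, all with PLC5 above, against 0.523% of all genes. S100A2, a calcium-binding protein, read 3483 and 3789 in control HepG2, 1110 and 1014 in exposed HepG2, 1316 and 1175 in control PLC5 and 1115 and 1432 in exposed PLC5, with the HepG2 controls above the other 3 groups, which lay between 1014 and 1432. Its difference was 1.80 ± 0.21 (limma adjusted p = 0.0158). S100A3 (1.21 ± 0.16) and ANXA3 (1.34 ± 0.24) had the same direction, as did the epithelial keratin KRT23 (1.58 ± 0.17, limma adjusted p = 0.011), which fell to 0.258 times control in HepG2.

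Glucose transport, glycolysis and hypoxia genes stood apart in the same direction. Of 23 genes of glycolysis and glucose transport over the minimum 5 were called, all with PLC5 above (SLC2A3, SLC2A1, PFKP, PDK1 and ALDOC), and the list's median difference was 0.55. Of all genes 0.523% were called above and 0.368% below. In 15 of the 23 the PLC5 differences lay above those of HepG2 without overlap, and in none below. The shares over all genes were 18.2% above and 18.8% below. Within HepG2 7 of the 23 fell and 3 rose (4.03% and 5.92% of all genes), and within PLC5 5 rose and none fell (1.0% and 0.283%). Of 18 hypoxia targets outside glycolysis 4 were called, all above (CA9, INSIG2, NDRG1 and PLIN2), with a median difference of 0.59. With the replicate number as a block, limma's adjusted p was 0.0595 for CA9 and INSIG2, 0.0745 for NDRG1 and 0.0882 for PLIN2. In the same fit it was 0.0595 for SLC2A1, 0.0613 for PFKP and 0.0574 for ALDOC, and under 0.05 for SLC2A3 and PDK1. Without normalization the medians of the 2 lists were 0.20 and 0.21.

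The transporters fell in HepG2. SLC2A3, the neuronal-type glucose transporter GLUT3, measured 25370 and 26700 in control HepG2, 9201 and 8292 in exposed HepG2, 51500 and 50820 in control PLC5 and 62900 and 57340 in exposed PLC5. Treated HepG2 was far below its control, the PLC5 groups were apart by little, and no groups overlapped. It fell to 0.336 times control in HepG2 (adjusted p = 0.000394), and the difference was 1.81 ± 0.14 (95% interval 1.49 to 2.12, limma adjusted p = 0.0028), with 1.59 on the gene's second probe (adjusted p = 0.00649). SLC2A1, the widespread transporter GLUT1, had intensities of 2069 and 2135 in control HepG2, 862 and 1029 in exposed HepG2, 166 and 138 in control PLC5 and 242 and 204 in exposed PLC5. It was far dimmer in PLC5 than in HepG2, and its difference was 1.71 ± 0.22 (limma adjusted p = 0.0256; 0.103 without the first treated HepG2 array).

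Inside glycolysis the pattern varied by enzyme. PFKP, the platelet form of phosphofructokinase, fell in HepG2 by 1.28 on the log2 scale with a PLC5 response of 0.27 (difference 1.56 ± 0.21, limma adjusted p = 0.0289). ALDOC, an aldolase, rose in both lines, and its intensities were 7983 and 9456 in control HepG2, 13380 and 14690 in exposed HepG2, 2267 and 2092 in control PLC5 and 8614 and 9216 in exposed PLC5. The treated arrays were above their controls in each line without overlap. It rose 1.61-fold in HepG2 and 4.09-fold in PLC5, a difference of 1.34 ± 0.17 (limma adjusted p = 0.025). HK2, a hexokinase, had a difference of 1.49 ± 0.29 that was not called (limma adjusted p = 0.0647) and is named after its values were seen.

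CA9, the cell-surface carbonic anhydrase with the ACGTG core next to its start, read 304 and 368 in control HepG2, 189 and 177 in exposed HepG2, 1754 and 1776 in control PLC5 and 2542 and 3239 in exposed PLC5. It went down in HepG2 and its PLC5 arrays were higher after treatment, with no overlap in either line. The HepG2 response was -0.87 (adjusted p = 0.0164), the PLC5 response 0.70 (adjusted p = 0.0938) and the difference 1.57 ± 0.22 (limma adjusted p = 0.0317). NDRG1, a hypoxia- and differentiation-induced gene, rose in PLC5 only by call (1.35, adjusted p = 0.00133, against 0.15 in HepG2, adjusted p = 0.448), with a difference of 1.20 ± 0.17 (limma adjusted p = 0.0311). PLIN2, which coats lipid droplets, was among the brightest members at 169000 and 145600 in control HepG2, 95910 and 115300 in exposed HepG2, 61580 and 64310 in control PLC5 and 79470 and 93350 in exposed PLC5; its difference was 1.03 ± 0.18 (limma adjusted p = 0.0485).

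Many ATF4 and CHOP stress-response genes rose in both lines, and 6 of the 31 over the minimum were called with a higher PLC5 response and none with a lower one. In HepG2 15 rose and 2 fell (5.92% and 4.03% of all genes), and in PLC5 19 rose and none fell (1.0% and 0.283%). The shares of all genes called in the difference were 0.523% above and 0.368% below. The median response was 0.42 in HepG2 and 0.89 in PLC5, and the median difference was 0.25. Without normalization that median was -0.14, while all genes stood at -0.35. The called genes were GDF15, described above, ATF3, NDRG1, SESN2, SLC7A11 and PSAT1, of which ATF3 and NDRG1 are also on the immediate early and hypoxia lists.

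ATF3, a stress-induced transcription factor, measured 3984 and 3870 in control HepG2, 3435 and 3380 in exposed HepG2, 3313 and 3995 in control PLC5 and 6417 and 8147 in exposed PLC5. The treated PLC5 arrays were the highest, at 1.99 times control, while the other groups lay between 3313 and 3995, and the difference was 1.20 ± 0.21 (limma adjusted p = 0.0487). SLC7A11, the cystine importer, rose 1.52-fold in HepG2 and 2.78-fold in PLC5 (difference 0.87 ± 0.15, limma adjusted p = 0.0487). SESN2, a sestrin that restrains mTORC1, rose 2.04-fold in PLC5 and stood at 1.08 times control in HepG2 (adjusted p = 0.59). PSAT1, an enzyme of serine synthesis, rose 1.85-fold in PLC5 and was at 1.12 times control in HepG2 (adjusted p = 0.299).

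ATF3, SESN2, SLC7A11, PSAT1 and NDRG1 lost their call in every fit that left out 1 array, with adjusted p up to 0.167 for PSAT1. Leading genes of the programme were not called. ASNS, asparagine synthetase, rose 2.16-fold and 2.57-fold, a difference of 0.25 ± 0.12 (95% interval -0.03 to 0.53, limma adjusted p = 0.337). TRIB3, a pseudokinase induced by ATF4, rose 2.33-fold and 4.05-fold and was not called (0.80 ± 0.20, limma adjusted p = 0.105). Among 20 amino acid transporters SLC7A11 was the 1 call, and the median difference was 0.39 (-0.05 without normalization).

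A pair of cell-cycle kinase inhibitors had a higher PLC5 response, the only calls among 11 CDK inhibitors and cyclins over the minimum (0.523% of all genes were called above). CDKN1A, which encodes p21, read 11540 and 11310 in control HepG2, 11570 and 12120 in exposed HepG2, 1415 and 1202 in control PLC5 and 3139 and 2980 in exposed PLC5. It was dim in PLC5 controls and went up there without overlap, while the HepG2 arrays lay between 11310 and 12120. It rose 2.35-fold in PLC5 (adjusted p = 0.00196), the HepG2 response was 0.05 (adjusted p = 0.812), and the difference was 1.18 ± 0.17 (limma adjusted p = 0.0311); a second probe gave 0.69 and was not called (adjusted p = 0.182). CDKN2B, which encodes p15, fell to 0.474 times control in HepG2 (adjusted p = 0.0037) with a PLC5 response of 0.33 (adjusted p = 0.293), a difference of 1.41 ± 0.18 (limma adjusted p = 0.0256).

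Most proliferation genes had negative differences, with 1 call. Of 45 DNA replication genes over the minimum none was called in the difference by limma (17 at an unadjusted p under 0.05, against 2911 of all 14149 genes). Of the 45, 37 were negative, 22 had PLC5 differences below those of HepG2 without overlap and none above, and the median difference was -0.35. Without overlap, 18.8% of all genes lay below and 18.2% above. The median response was -0.07 in HepG2 and -0.37 in PLC5. Of 43 mitotic genes 40 were negative with a median of -0.34, and the kinesin KIF18A was the 1 call (-1.52 ± 0.24, limma adjusted p = 0.0463); it rose 2.82-fold in HepG2, from a dim control level. PCNA, the replication clamp, fell to 0.684 times control in PLC5 (adjusted p = 0.0428) and had a difference of -0.45 ± 0.14 (limma adjusted p = 0.155). CCNB1, cyclin B1, had a difference of -0.68 ± 0.21 (limma adjusted p = 0.157).

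HOX genes are textbook Polycomb targets, and 3 of the 25 over the minimum were called, all with a lower PLC5 response and all from the HOXA cluster. The share called with a lower PLC5 response was 0.368% over all genes. HOXA3 measured 1384 and 1390 in control HepG2, 2072 and 1975 in exposed HepG2, 5019 and 4850 in control PLC5 and 2266 and 2200 in exposed PLC5. Control PLC5 was the highest group, treatment brought it close to the treated HepG2 level, and treated HepG2 lay above its control. HOXA3 fell to 0.453 times control in PLC5 (adjusted p = 0.00184) and rose 1.46-fold in HepG2 (adjusted p = 0.0219), a difference of -1.69 ± 0.15 (95% interval -2.04 to -1.34, limma adjusted p = 0.00494). A dimmer second probe gave -0.44 (adjusted p = 0.345).

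HOXA4 read 3598 and 3396 in control HepG2, 3427 and 3202 in exposed HepG2, 8297 and 7019 in control PLC5 and 3292 and 2953 in exposed PLC5. HOXA5 read 568 and 605 in control HepG2, 576 and 536 in exposed HepG2, 3454 and 4001 in control PLC5 and 1459 and 1463 in exposed PLC5. In both, treated PLC5 fell well below its control and the HepG2 groups overlapped. The differences were -1.21 ± 0.18 for HOXA4 (limma adjusted p = 0.0336) and -1.27 ± 0.18 for HOXA5 (limma adjusted p = 0.0311). A second HOXA5 probe gave -2.34 (limma adjusted p = 0.00494). With 1 array left out, HOXA3 kept its call in all 8 fits, and HOXA4 and HOXA5 in none. With the replicate number as a block, limma's adjusted p was 0.0595 for HOXA4 and 0.071 for HOXA5. Over the 25 HOX genes the median difference was 0.01, with 13 positive and 12 negative, and these 3 were also the only HOX genes that fell in PLC5.

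The target enzyme's own complex held no call, which says little for a list of this size. None of 13 PRC2 genes over the minimum was called by limma in HepG2, in PLC5 or in the difference, and the median difference was -0.001. At an unadjusted limma p under 0.05 there were 4, 2 and 2, against 4264, 2710 and 2911 of all 14149 genes. In the difference 0.523% of all genes were called above and 0.368% below. EZH2 had intensities of 8643 and 9562 in control HepG2, 7651 and 6937 in exposed HepG2, 7022 and 7465 in control PLC5 and 4789 and 5218 in exposed PLC5, and its difference was -0.22 ± 0.16 (95% interval -0.58 to 0.15, limma adjusted p = 0.522). The paralog EZH1 had a difference of -0.15 ± 0.23, SUZ12 of 0.11 ± 0.17 and EED of -0.72 ± 0.21 (limma adjusted p = 0.764, 0.767 and 0.146). Of 21 genes reported elsewhere as silenced by EZH2, CDKN1A and CDKN2B were called above and CDH1 below, and the median difference was 0.07.

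The 52 genes with a lower PLC5 response were led by genes that rose in HepG2. ITIH1, a heavy chain of the plasma protein inter-alpha-trypsin inhibitor, made by liver, measured 1811 and 1881 in control HepG2, 8176 and 6975 in exposed HepG2, 683 and 848 in control PLC5 and 605 and 662 in exposed PLC5. The treated HepG2 arrays stood far above all others, and the PLC5 groups were apart by little with the treated arrays lower. ITIH1 rose 4.09-fold in HepG2 (adjusted p = 0.000525), the PLC5 response was -0.27 (adjusted p = 0.457), and the difference was -2.30 ± 0.21 (95% interval -2.77 to -1.83, limma adjusted p = 0.00494), with -2.07 on a second probe (adjusted p = 0.00344). It was the 1 call among 22 hepatocyte plasma proteins over the minimum, whose median difference was -0.001.

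DBP, a clock-controlled transcription factor first described at the albumin promoter, read 117 and 93.9 in control HepG2, 301 and 316 in exposed HepG2, 1379 and 1176 in control PLC5 and 901 and 865 in exposed PLC5. It rose in HepG2 from near the minimum, and the treated PLC5 arrays were below their controls. The difference was -2.09 ± 0.22 (limma adjusted p = 0.00835), and a second probe gave -0.96 (adjusted p = 0.116). PRSS8, the serine protease prostasin, had intensities of 307 and 336 in control HepG2, 1265 and 1136 in exposed HepG2, 116 and 118 in control PLC5 and 117 and 118 in exposed PLC5, level in PLC5 and 3.73-fold higher after treatment in HepG2 (difference -1.89 ± 0.19, limma adjusted p = 0.00833). SCNN1A, the subunit of the epithelial sodium channel that prostasin is known to activate, rose 2.75-fold in HepG2 and stood at 1.11 times control in PLC5 (difference -1.31 ± 0.17, limma adjusted p = 0.0237); it is named after its values were seen.

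Metabolic and regulatory genes followed. CPT1A, which admits fatty acids to mitochondria, read 2280 and 2215 in control HepG2, 4179 and 3816 in exposed HepG2, 31050 and 33110 in control PLC5 and 27190 and 26810 in exposed PLC5. It was far brighter in PLC5, rose 1.78-fold in HepG2 and had a difference of -1.08 ± 0.14 (limma adjusted p = 0.0274). A dimmer second probe gave -0.31 (limma adjusted p = 0.519), and the call was kept in none of the 8 fits that left out 1 array. CPT1A was the 1 call among 19 genes of fatty acid oxidation and ketogenesis, whose median difference was -0.13. Within the small list of SREBP control, INSIG2, an endoplasmic reticulum anchor of SREBP, rose in PLC5 (difference 1.33 ± 0.19, limma adjusted p = 0.0311), and MYLIP, a ubiquitin ligase, rose in HepG2 (-1.01 ± 0.17, limma adjusted p = 0.0487).

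Related genes sometimes parted. Among 13 tubulins TUBB2B had a lower PLC5 response (-1.39 ± 0.24, rising 4.42-fold in HepG2) and TUBA1A a higher one (1.18 ± 0.20, rising 2.06-fold in PLC5). Among NF-kB and cytokine genes the chemokine CCL20 fell to 0.502 times control in HepG2 (difference 1.07 ± 0.17), the chemokine CXCL2 rose 1.44-fold there from near the minimum (-1.05 ± 0.17), and UBD, a ubiquitin-like modifier, fell in both lines, to 0.642 times control in HepG2 and 0.371 in PLC5 (-0.79 ± 0.13). CDH1, E-cadherin, rose 1.72-fold in HepG2 (-1.11 ± 0.20). Limma's adjusted p for these 6 genes lay between 0.0469 and 0.049. With 1 array left out, TUBA1A kept its call in 1 of the 8 fits, and TUBB2B, CCL20, CXCL2, UBD and CDH1 in none.

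**Figure D4:**
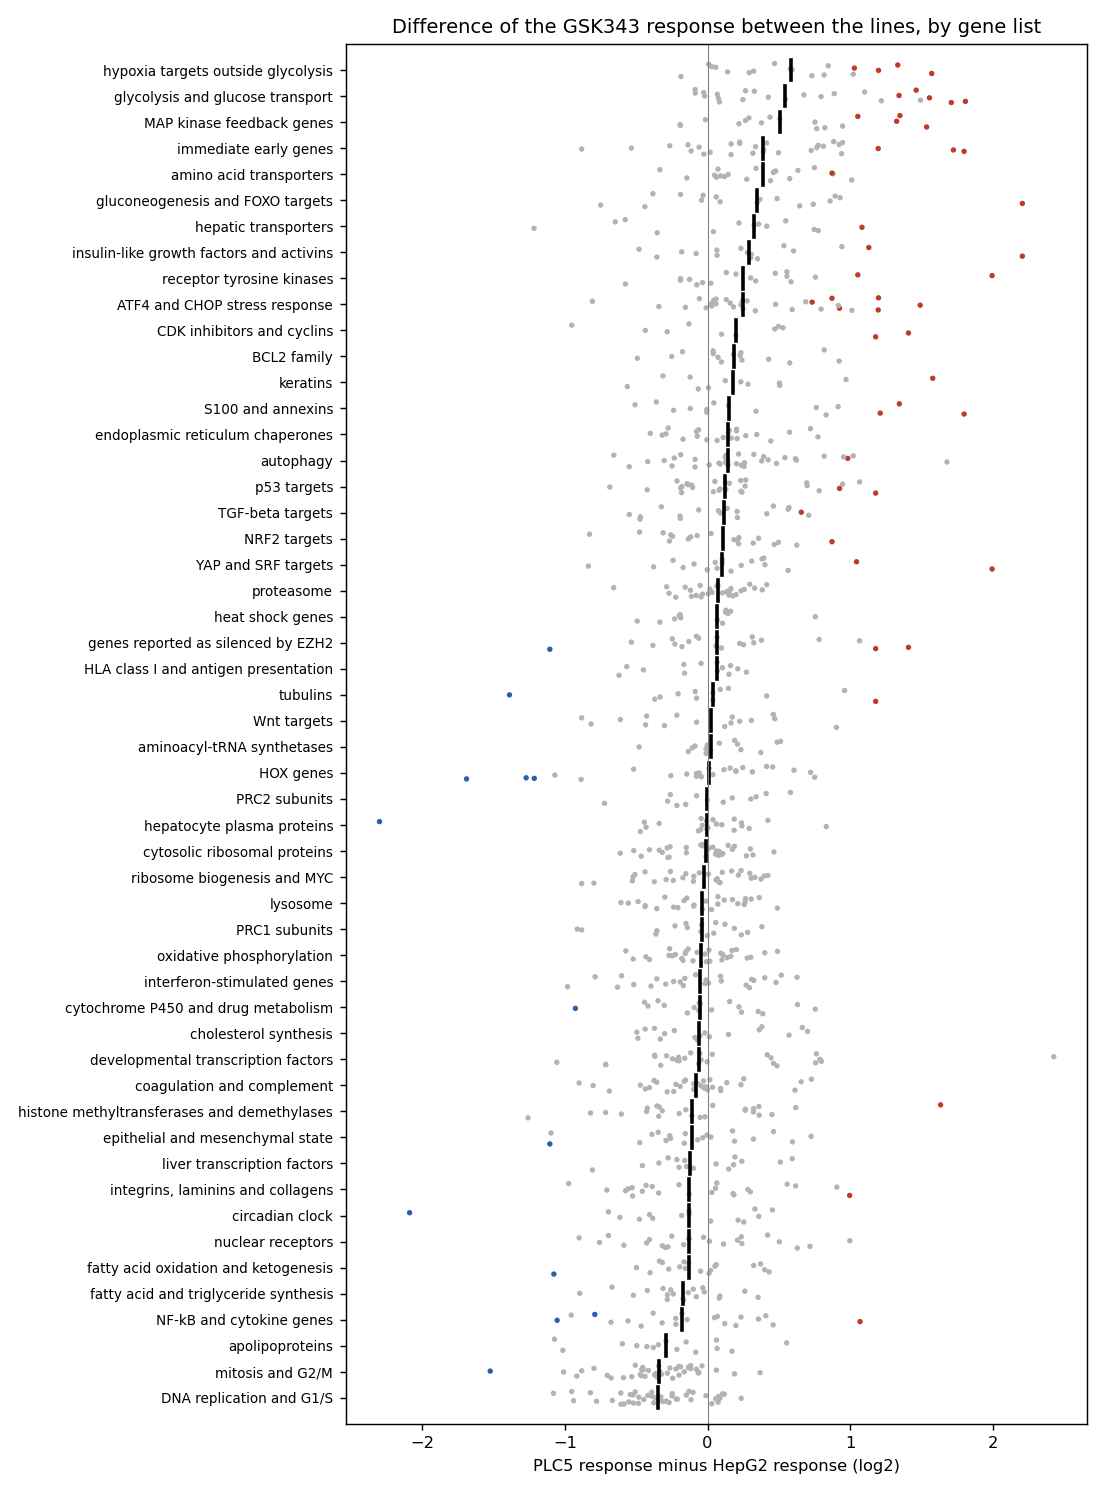
PLC5 response minus HepG2 response (x axis, log2) for every gene over the minimum in each gene list with at least 10 such genes (y axis, ordered by the list's median). Points are genes, red for called above, blue for called below and grey for not called, and black bars are medians; hypoxia, glycolysis and MAP kinase feedback genes lie furthest right and DNA replication and mitosis genes furthest left.

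Cholesterol synthesis genes rose in both lines. All 18 genes over the minimum rose in HepG2 and 17 rose in PLC5 (5.92% and 1.0% of all genes), with median responses of 1.29 and 1.25. None was called in the difference by limma (5 at an unadjusted p under 0.05, against 2911 of all 14149 genes). In 5 the PLC5 differences lay above those of HepG2 without overlap, and in 5 below, against 18.2% and 18.8% of all genes. For 16 of the 18 the 95% interval of the difference lay within 1 log2 unit of 0, against 74.6% of all genes. HMGCS1, the HMG-CoA synthase at the head of the pathway, measured 22730 and 24950 in control HepG2, 63870 and 78340 in exposed HepG2, 24010 and 22970 in control PLC5 and 67840 and 64940 in exposed PLC5. Treated arrays of both lines lay far above both controls, at nearly the same level. The difference was -0.07 ± 0.16 (95% interval -0.44 to 0.30, limma adjusted p = 0.849). MSMO1, a sterol methyl oxidase, rose 3.05-fold in HepG2 and 4.95-fold in PLC5, a difference of 0.70 ± 0.14 whose interval (0.38 to 1.02) left out 0 while its limma adjusted p was 0.071.

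Over all genes, 79 were called in both lines in the same direction, 74 up and 5 down, and only ALDOC, SLC7A11 and UBD of these were called in the difference. Of 61 gene lists 30 held no called gene, and 76 of the 126 called genes were on no list. With 2 arrays per group a difference of 1 log2 unit was recovered for 15 of 50 simulated probes and one of 2 units for 48 of 50, and none of 50 was recovered at 0.5.

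The lines differed in the level of most hepatocyte markers before treatment. Of 10 hepatocyte markers 9 were on the array, all over the minimum. They summed to between 1127000 and 1254000 on the HepG2 arrays and between 344000 and 379400 on the PLC5 arrays. ALB was far dimmer in PLC5 (140600 and 150800 in control HepG2, 186100 and 175600 in exposed HepG2, 706 and 786 in control PLC5 and 677 and 657 in exposed PLC5). FOXA2 (control means 36870 in HepG2 and 27560 in PLC5) and SERPINA1 (178300 and 102300) differed less. Of the 9, FGB alone was brighter in control PLC5 (mean 84260, against 19880 in control HepG2). No hepatocyte marker was called in the difference by limma (1 at an unadjusted p under 0.05). Of 8 leukocyte markers 4 were over the minimum (CD14, CD68, LYZ and MS4A1), and PTPRC, CD3E and CSF1R were below 64 in all groups. Of 8 fibroblast and stellate markers 6 were over it (ACTA2, COL1A1, COL1A2, LUM, PDGFRB and RGS5), and DCN was below 64 in all groups. The leukocyte list's sum went from 14360 and 17130 to 10700 and 11300 with treatment in HepG2, mostly through LYZ, and stayed between 6615 and 7642 in PLC5. The fibroblast list's sum went from 27060 and 28330 to 32290 and 32030 in HepG2, mostly through ACTA2 (mean 17850 to 25240), while PDGFRB went from 1618 to 950.2 and RGS5 from 5784 to 4107, and lay between 3468 and 5680 in PLC5. The median difference was 0.45 for the leukocyte and 0.54 for the fibroblast list, with HepG2 medians of -0.56 and -0.44 and PLC5 medians of -0.11 and 0.17. No endothelial, leukocyte, fibroblast or cholangiocyte marker was called in the difference by limma (1, 1, 4 and 2 at an unadjusted p under 0.05), and the part of these markers and of starting levels in any difference was not tested.

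At the edge of the intensity minimum, the called probes just inside were those of RAB11FIP4 (lowest group mean 66.2, difference -1.45 ± 0.25), TTYH2 (69.3, -2.16 ± 0.35) and SLC66A3 (72.5, -2.02 ± 0.33). Those just outside were STAR (60.7, -1.23 ± 0.21), PDGFD (58.8, -1.67 ± 0.24) and MT1B (58.7, -3.75 ± 0.20). In all, 41 called probes lay outside the minimum and 180 inside, 25 of these without a single gene symbol. Of 36 called genes with further probes over the minimum, 38 of 43 further probes had the same sign and 6 were called; those of the opposite sign belonged to DNAJB14, DOCK9, NOTCH2, PDE5A and PRMT2.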

How the data were processed

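The deposited values were whole-number, linear intensity values from 1-colour arrays hybridized with Cy5-coupled amino-allyl antisense RNA, per the labels' protocols; the sources used here do not give their scanner software or background correction. Array medians of the deposited intensity ran from 226 to 552, and 0% to 6.99% of probes lay at or below 1, so the arrays had not been normalized against each other. Here they were quantile normalized, floored at 1 and taken to log2. Symbols came from the platform annotation (24740 probes with 1 symbol, 977 with several, 6024 with none), updated through RefSeq of GRCh38.p14 for 1948. A gene was represented by its brightest 1-symbol probe over the minimum of 64.

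Group means were fitted with limma 3.58.1 (R 4.3.3) on all 8 arrays in 1 model (lmFit, then eBayes with an intensity trend; 4 residual and 4.75 prior degrees of freedom), with 2-sided tests and Benjamini-Hochberg adjustment over 31741 probes. The members, gene lists and tests were chosen with earlier results of these data known. The text names the 12 largest called differences of each sign, up to 5 genes called in both lines in opposite or in the same direction, up to 4 called genes per list, and a few fixed genes. Lists are described by counts and medians, without a set test. The fit was tested on simulated arrays with independent noise of the size the fit estimated. In them 50 probes of each size were changed in treated PLC5 alone, and HepG2 had no response. There 9 of 108 calls were unchanged probes. The number of arrays limits the precision. Alternatives changed the normalization, the filter, the floor, the eBayes settings, the block and the arrays used. No column of per-sample values belonged to another series (0 columns).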

Additional observations from a re-analysis of the deposited data

Results flagged for a closer look

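The responses of the 2 lines differed by limma's own test of the difference for each gene here, which is what singled it out (adjusted p under 0.05; values are PLC5 response minus HepG2 response, log2, n = 2 arrays per group). In the largest differences with PLC5 above, the value was 2.21 for IGFBP1, 1.99 for AXL, 1.99 for PDE5A, 1.81 for SLC2A3, 1.80 for NPTX2, 1.80 for S100A2, 1.80 for EGR1, 1.72 for IER3, 1.71 for SLC2A1, 1.63 for ASB4, 1.63 for KDM7A and 1.58 for KRT23. With PLC5 below it was -2.30 for ITIH1, -2.16 for TTYH2, -2.09 for DBP, -2.02 for SLC66A3, -1.89 for PRSS8, -1.77 for CABLES2, -1.72 for CAPN3, -1.70 for BRD1, -1.69 for HOXA3, -1.62 for CCDC121, -1.61 for DHFR2 and -1.56 for HES6. Among genes called in both lines it was 1.49 for GDF15, 1.46 for PDK1, 1.34 for ALDOC, 1.13 for FST, 0.87 for SLC7A11 and -0.79 for UBD. PDE5A had a further probe of the opposite sign, at -0.32. With quantile normalization within each line, limma's adjusted p was above 0.05 for PDE5A, NPTX2, TTYH2, SLC66A3, BRD1, DHFR2, HES6, SLC7A11 and UBD. TTYH2 and SLC66A3 had a HepG2 control array under 64, at 56.6 and 59.1.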

How the results depend on the processing

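The main count of genes called in the difference was 126 (5527 probes at an unadjusted p under 0.05), with 1408 called in HepG2, 182 in PLC5 and 50 called genes on a list. Array centring on the median gave 64, 1214, 305 and 29, and moved the share called higher from 58.7% to 50% in the difference, from 59.5% to 43.0% in HepG2 and from 78.0% to 31.1% in PLC5. No normalization gave 204, 3419, 97 and 36, with 7.35% of the difference and 98.5% of HepG2 called higher. Leaving out the dimmest 50% of probes gave 205 and, for PLC5, 339. Dropping the eBayes trend gave 6, 578, 45 and 5, and robust eBayes gave 222 in the difference. Requiring a log2 change of at least 1 gave 231 in HepG2 and 62 in PLC5. Leaving out 1 array gave 13 to 45 in the difference, 256 to 1309 in HepG2, 65 to 105 in PLC5 and 9 to 18 on the lists; an arm left with 1 array is taken to vary like the others. The replicate block gave 19, 880, 90 and 12. Same-numbered arrays deviated with r between -0.25 (HepG2 control and treated) and 0.01, so equal numbers did not go with shared deviations. It was -0.19 for treated HepG2 and control PLC5. A negative r means that arrays of unlike number deviated together, and the main fit takes no account of this. With the HepG2 numbers crossed, an alternative added after the data were seen, the block gave 60 in the difference and 31 on the lists. Signs turned for ASNS (-0.14) and SUZ12 (-0.20) without normalization, and with 1 array left out for EZH1 (-0.333 to 0.027), SUZ12 (-0.03 to 0.25) and HMGCS1 (-0.212 to 0.078), none of them called; the cause was not tested. Of the other single-gene values, 1012 kept their side of the threshold and 581 fell below it with the same sign. The intensity over background of each spot is not known here, which limits the dim genes.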

Other observations

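Further called genes lie outside the groups described in the report, and several were chosen here after their values were seen. KDM7A, a histone demethylase, read 10030 and 9861 in control HepG2, 5592 and 5431 in exposed HepG2, 1589 and 1089 in control PLC5 and 1997 and 2558 in exposed PLC5, a difference of 1.63 ± 0.26 (limma adjusted p = 0.0469) and the 1 call among 25 histone methyltransferases and demethylases over the minimum. The 2 Notch receptors called went opposite ways, with NOTCH1 at -1.36 ± 0.23 and NOTCH2 at 1.39 ± 0.23 (limma adjusted p = 0.047 for each), though a further NOTCH2 probe gave -0.68. HES6, a transcription factor of the Hairy and enhancer-of-split family, rose 4.01-fold in HepG2 and had a difference of -1.56 ± 0.27 (limma adjusted p = 0.0487).

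Secreted and surface proteins of liver cells were also among the calls. ANGPTL8, a secreted regulator of lipoprotein lipase, rose 2.82-fold in HepG2, its intensities being 1084 and 1203 in control HepG2, 3400 and 3054 in exposed HepG2, 256 and 301 in control PLC5 and 323 and 339 in exposed PLC5 (difference -1.24 ± 0.19, limma adjusted p = 0.0442). SLC51B, a subunit of the basolateral bile acid transporter, had no call in either line but a difference of 1.08 ± 0.18 (limma adjusted p = 0.0469). WIPI1, a protein of early autophagosomes, rose 1.86-fold in PLC5 and stood at 0.941 times control in HepG2 (adjusted p = 0.656), the 1 call among 37 autophagy genes. With 1 array left out, KDM7A kept its call in 1 of the 8 fits, and NOTCH1, NOTCH2, HES6, ANGPTL8, SLC51B and WIPI1 in none.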
